A study of Sus scrofa with 8 samples.

Results

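The atrial chamber marker genes are genes whose transcripts are typical of the upper chambers of the heart, the atria. The 9 members listed by name were MYL7, MYL4, SLN, BMP10, NR2F2, NR2F1, GJA5, PAM and DKK3. They were looked up by gene name in a table of 18975 pig genes, and 8 of the 9 were matched. BMP10, an atrial ligand of the bone morphogenetic protein family, was not matched and was not analysed here. All 8 matched genes were among the 11913 genes that reached at least 1 FPKM (fragments per kilobase of transcript scaled by the mapped fragments of the library) in at least 2 libraries, so none was lost to the filter.

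Heart RNA of male pigs aged 6 months was sequenced in 8 libraries. They covered Tibetan pigs from the highlands (TH), Tibetan pigs from the lowlands (TL), Yorkshire pigs from the highlands (YH) and Yorkshire pigs from the lowlands (YL), with 2 libraries a group. Each library was a pool of equal amounts of RNA from 4 animals, so a library shows an average of 4 hearts, and a p-value measures only the spread between pools. No group carried a transgene, a deletion or a drug treatment, and the groups differed by breed and by the place where the pigs were raised. The chamber from which the tissue was cut is not given in the sources used here.

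Atria and ventricles build their contractile apparatus from partly different genes. The atria use the light chains MYL7 and MYL4 where the ventricles use MYL2 and MYL3, and they use sarcolipin (SLN) where the ventricles use phospholamban (PLN) to restrain the calcium pump of the sarcoplasmic reticulum. The transcription factors NR2F1 and NR2F2 (COUP-TF1 and COUP-TF2) are known for a part in atrial identity, and NR2F2 is also known for venous endothelium. A marker of a chamber can change in a tissue sample with the share of that chamber, or with its level in each cell. In these bulk samples, fewer cells of a type and less RNA per cell cannot be told apart.

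The libraries held 15686807 to 26722604 reads on genes. YL2 stood apart: the summed FPKM of 8 kidney-type genes was 4323 there against 0.0855 to 17.0 in the other 7 libraries. The summed FPKM of 11 cardiomyocyte genes shared by both chambers was 15430 in YL2 and 28110 to 50320 elsewhere, the highest in TH1. Correlations of log2(FPKM + 1) between YL2 and the other libraries were 0.839 to 0.870, and those among the other 7 were 0.900 to 0.972. TH1 differed in another way. Its FPKM summed over all genes to 8559104, against 1563940 to 4017846 in the others. VWF and NRP2, endothelial genes chosen here after their values were seen, had 1.07 and 0.345 FPKM in TH1, against 22.8 and 3.37 in TH2. Both were lower in TH1 than in any other library. TEK, KDR and EMCN were also lowest in TH1, at 3.70, 8.74 and 6.72 FPKM. PECAM1 was highest in TH1, at 96.8 FPKM, and ERG had 8.54 there, against 4.45 to 10.4 elsewhere. The 6 matched genes of all endothelium, VWF among them, summed to 125.5 FPKM in TH1 and to 92.5 to 163.7 in the others. Heart muscle was present in every library, since TNNI3, the cardiac troponin I gene, had 4597 to 16847 FPKM. Of 5 matched skeletal muscle genes, the myosin heavy chains MYH1 and MYH2 had at most 0.0373 FPKM and MYL1 had 0.745 to 21.3, while ACTA1 and CKM, which heart muscle also expresses, had 5833 to 30005 and 917 to 2745.

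The 8 members spanned a wide range of levels. On the length-corrected FPKM scale the mean over the 8 libraries was 1965 for MYL7, which put it at rank 62 of all genes. PAM had a mean of 132 FPKM, DKK3 19.7, SLN 10.7, MYL4 7.29, NR2F2 6.39, GJA5 4.60 and NR2F1 2.01. The member that varied most was SLN, whose highest library had 69.5 times the FPKM of its lowest, and the one that varied least was GJA5, at 2.48 times. Without YL2, the highest over the lowest library was 1.74 for PAM, 1.97 for NR2F2 and 3.74 for NR2F1. With YL2 these ratios were 3.30, 4.12 and 15.1, so that library widened the range of these 3 genes.

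**Figure D1:**
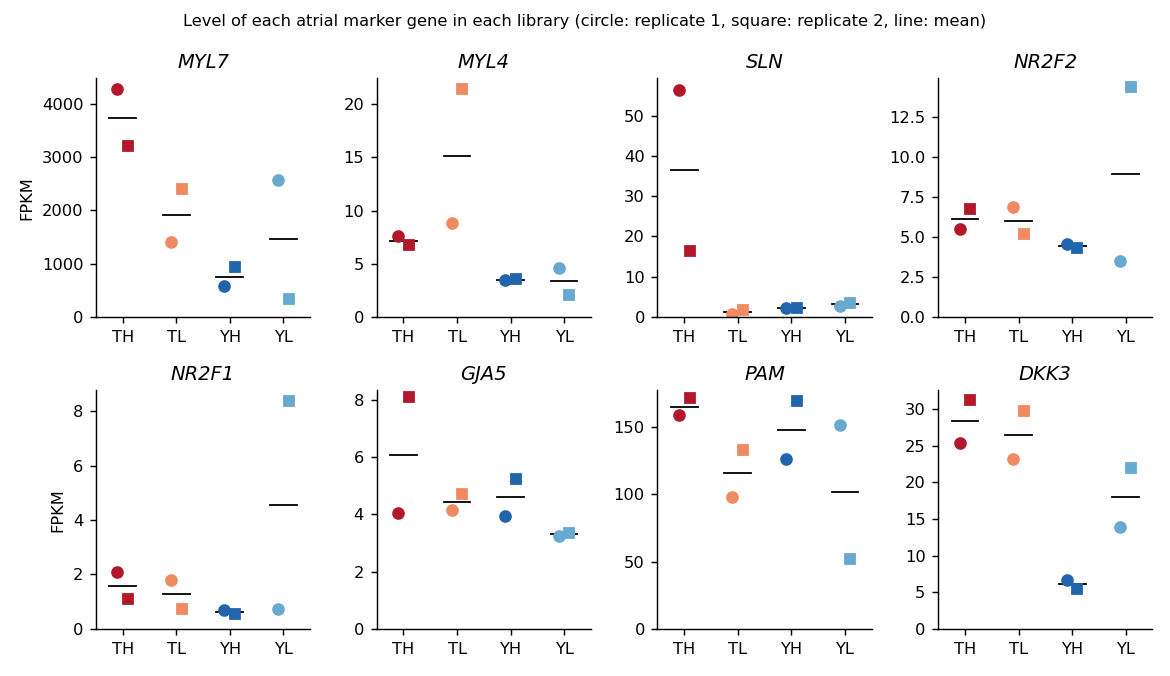
Level of each of the 8 atrial marker genes (vertical axis, FPKM, a linear scale from 0) in the 4 groups TH, TL, YH and YL, with a circle for replicate 1, a square for replicate 2 and a line at the mean of both. SLN was high only in the TH libraries (56.5 and 16.3 FPKM), DKK3 was lowest in the YH libraries (6.66 and 5.51 FPKM), and NR2F1 and NR2F2 were highest in the second YL library.

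MYL7 (ENSSSCG00000016752; Sscrofa10.2, chromosome 18, 55920351 to 55922606) encodes the atrial regulatory light chain of myosin. Its levels were 4283 and 3207 FPKM in TH, with TL at 1415 and 2396, YH at 576 and 932, and YL at 2578 and 337, from 7908 to 61895 reads. Both TH libraries lay above all others, and both YH libraries lay below both TL libraries. The YL libraries differed 7.65-fold between themselves and spanned the levels of TL and YH. At high altitude the TH mean was 4.97 times the YH mean, a log2 fold change of 2.34 ± 0.89 (SE, n = 2 and 2) with an adjusted p of 0.277 by limma. At low altitude TL and YL overlapped, at 0.98 ± 0.89 (limma, adjusted p = 0.783). This low-altitude value was -0.48 without YL2 and 2.45 without YL1, so its sign rested on which YL library was kept.

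MYL4 (ENSSSCG00000017307; chromosome 12, 16799290 to 16813119) encodes the atrial essential light chain, which binds the same myosin heads as MYL7. It had 7.59 and 6.73 FPKM in TH, with TL at 8.85 and 21.4, YH at 3.48 and 3.54, and YL at 4.60 and 2.09, from 36 to 308 reads. All 4 Tibetan libraries lay above all 4 Yorkshire libraries. Within the Tibetan pigs, TL2 was far above the other 3, and both TH libraries were below both TL libraries. The log2 fold change was 0.85 ± 0.44 for TH to YH (limma, adjusted p = 0.386). For TL to YL it was 1.84 ± 0.44 (limma, adjusted p = 0.285), and 1.24 without TL2. The order of the Tibetan groups therefore differed between the light chains: MYL7 had its highest values in TH and MYL4 in TL.

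SLN (ENSSSCG00000029651; chromosome 9, 40309460 to 40314414) encodes sarcolipin, a small membrane protein that inhibits the sarcoplasmic reticulum calcium pump. It stood at 56.5 and 16.3 FPKM in TH, with TL at 0.812 and 1.69, YH at 2.11 and 2.33, and YL at 2.74 and 3.52. The reads behind these values were 642 and 168 in TH and between 10 and 62 in the other 6 libraries. Both TH libraries lay above the other 6, which stayed between 0.812 and 3.52 FPKM, and the TH libraries differed 3.46-fold between themselves. The TH mean was 16.4 times the YH mean and 29.1 times the TL mean. The log2 fold change was 3.29 ± 0.53 for TH to YH (limma, adjusted p = 0.0761) and 3.84 ± 0.53 for TH to TL (limma, adjusted p = 0.0878). Without TH1, the library with the highest FPKM sum over all genes, the values were 2.43 and 2.97. The part of that high sum in the level of SLN was not tested. At low altitude SLN was lower in both TL libraries than in both YL libraries, at -0.90 ± 0.53 (limma, adjusted p = 0.683).

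NR2F2 (ENSSSCG00000002254; chromosome 7, 88960178 to 88972488) encodes COUP-TF2. Its levels were 5.49 and 6.74 FPKM in TH, with TL at 6.87 and 5.18, YH at 4.58 and 4.33, and YL at 3.50 and 14.4. The 4 Tibetan libraries lay above YH1, YH2 and YL1, by a small margin, and YL2 lay above all. The log2 fold change was 0.38 ± 0.53 for TH to YH (limma, adjusted p = 0.745) and -0.25 ± 0.53 for TL to YL, which was 0.63 without YL2.

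NR2F1 (ENSSSCG00000014157; chromosome 2, 103838946 to 103848870) encodes the related COUP-TF1. It had 2.07 and 1.09 FPKM in TH, with TL at 1.81 and 0.731, YH at 0.690 and 0.554, and YL at 0.748 and 8.37. Outside YL2 the levels were low, from 31 to 95 reads, against 618 reads in YL2. Both TH libraries were above both YH libraries, at 0.65 ± 0.72 (limma, adjusted p = 0.680). TL and YL overlapped, at -0.88 ± 0.72, and the value was 0.34 without YL2 and -2.09 without YL1. Both COUP-TF genes were highest in the library that also held the kidney-type transcripts. The part of those transcripts' source in the NR2F1 and NR2F2 levels was not tested.

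GJA5 (ENSSSCG00000006696; chromosome 4, 109687806 to 109704698) encodes connexin 40, the gap junction protein of atrial muscle, the fast conduction system and arterial endothelium. Its levels were 4.06 and 8.09 FPKM in TH, with TL at 4.17 and 4.71, YH at 3.94 and 5.25, and YL at 3.26 and 3.35. TH2 was the highest library, and the YL libraries were the lowest. TH and YH overlapped, at 0.29 ± 0.31 (limma, adjusted p = 0.665), and the value was -0.13 without TH2. TL lay above YL in both libraries, at 0.34 ± 0.31 (limma, adjusted p = 0.786). After scaling to cardiomyocyte genes the TL to YL value was -0.12, with the median of all genes moved to -0.45. Arterial endothelial genes had their highest sum in the same library: 7 of them summed to 37.0 FPKM in TH2 and 19.4 in TH1, to 27.8 to 31.2 in TL and YH, and to 18.4 and 18.8 in YL. Among the 7, DLL4 and SOX17 had 8.56 and 8.26 FPKM in TH2 and at most 6.55 and 4.65 elsewhere. GJA4, CXCR4 and EFNB2 were highest in a YH library, at 10.4, 5.69 and 4.59 FPKM against 7.94, 4.63 and 4.39 in TH2, and HEY1 was highest in TL2, at 5.47 against 2.92. None of the 7 was listed at 0 in every library of a group. Of the conduction system genes, HCN4 had at most 0.0332 FPKM in any library. TBX3 had 1.59 and 2.27 FPKM in TH and 2.50 to 3.94 in the other 6 libraries, and SHOX2 was highest in TH2, at 0.745. The part of arterial and conduction cells in the GJA5 levels was not tested.

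PAM (ENSSSCG00000014184; chromosome 2, 112397802 to 112553942) encodes the enzyme that amidates the ends of secreted peptides and is the main membrane protein of atrial secretory granules. It had 159 and 171 FPKM in TH, with TL at 98.1 and 133, YH at 126 and 169, and YL at 152 and 51.9. Breeds overlapped at both altitudes, with log2 fold changes of 0.17 ± 0.49 for TH to YH (limma, adjusted p = 0.883) and 0.36 ± 0.49 for TL to YL (limma, adjusted p = 0.870). The second value was -0.40 without YL2, the library with the lowest PAM level.

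DKK3 (ENSSSCG00000013401; chromosome 2, 50699984 to 50758475) encodes a secreted glycoprotein of the Dickkopf family, whose other members inhibit Wnt signaling. It stood at 25.4 and 31.3 FPKM in TH, with TL at 23.2 and 29.8, YH at 6.66 and 5.51, and YL at 13.9 and 22.0, from 405 to 2096 reads. All 4 Tibetan libraries lay above all 4 Yorkshire libraries, and the YH libraries were the lowest. The TH mean was 4.66 times the YH mean, a log2 fold change of 2.05 ± 0.28 (limma, adjusted p = 0.0584). For TL to YL it was 0.56 ± 0.28 (limma, adjusted p = 0.630). After scaling to cardiomyocyte genes the TL to YL value was 0.03, with the median of all genes moved to -0.45. DKK3 was also lower in YH than in YL, at -1.39 ± 0.28 (limma, adjusted p = 0.582). Of the 8 tested fibroblast gene entries (COL1A1 has 2), 7 were higher in TL than in YL without overlap, against 23.8% of all genes. In TH against YH, 3 were higher without overlap, against 25.2% of all genes, and 1 was lower, DCN, against 27.3%. None passed the threshold used here. COL1A2, a collagen gene of fibroblasts, had 32.7 and 56.6 FPKM in TH, with TL at 59.8 and 42.9, YH at 17.4 and 17.9, and YL at 15.4 and 16.5. DCN differed from COL1A2 at high altitude, since its TH levels of 72.4 and 148 FPKM lay below its YH levels, 164 and 179. Of the 8 tested entries, 5 had a positive TH to YH log2 fold change and 3 had a negative one. The negative values were -0.72 for DCN, -0.40 for PDGFRA and -0.35 for 1 of the COL1A1 entries. The summed FPKM of the fibroblast list was 185 and 540 in TH, with TL at 470 and 611, YH at 270 and 330, and YL at 202 and 233. That sum, in which DCN had the largest mean, was higher in both YH libraries than in both YL libraries. The part of fibroblasts in the DKK3 levels was not tested.

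The breed comparison at high altitude asks how Tibetan and Yorkshire hearts differ under low oxygen, and the members bear on how alike the chamber content of the pools was. By limma no member passed the threshold in TH to YH, an adjusted p under 0.01 with an absolute log2 fold change over 1, which 0.0336% of all genes tested passed. At an unadjusted p under 0.05, MYL7, SLN and DKK3 passed, 3 of 8, against 16.2% of all genes. Of the 8 members, 6 had both TH libraries above both YH libraries: MYL7, MYL4, SLN, NR2F2, NR2F1 and DKK3. Of all genes, 25.2% were higher without overlap, and 27.3% were lower without overlap, a direction in which no member lay. The median log2 fold change of the members was 0.75, against -0.03 over all genes tested. Without TH1 the log2 fold changes of the 6 were 2.13 for MYL7, 0.78 for MYL4, 2.43 for SLN, 0.51 for NR2F2, 0.37 for NR2F1 and 2.19 for DKK3. The part of what sets TH1 apart in the members' levels was not tested. The 5 smooth muscle genes summed to 369 and 335 FPKM in TH, with TL at 242 and 231, YH at 174 and 217, and YL at 127 and 108. By limma none of the 5 passed the threshold in TH to YH, and the lowest adjusted p was 0.148, for TAGLN. ACTA2, CNN1 and TAGLN lay higher in TH than in YH without overlap, at 0.52, 1.56 and 1.01 on the log2 scale. MYH11 lay lower without overlap, at -0.88, and SMTN overlapped, at -0.07. None of the 5 was at 0 in any group, and the part of smooth muscle cells in the members' levels was not tested.

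The breed comparison at low altitude asks how the hearts differ without low oxygen. In TL to YL no member passed the threshold by limma, which 0.00839% of all genes passed, and only MYL4 had an unadjusted p under 0.05, where 8.94% of all genes did. MYL4, GJA5 and DKK3 were higher in TL without overlap, 3 of 8, against 23.8% of all genes. SLN was lower without overlap, 1 of 8, against 17.8%. The median log2 fold change was 0.35 over the members and 0.02 over all genes. Other heart gene lists had higher medians in TL to YL. They were 0.69 for 7 ventricular genes, 0.63 for 8 other atrial genes and 0.50 for the 11 shared cardiomyocyte genes.

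**Figure D2:**
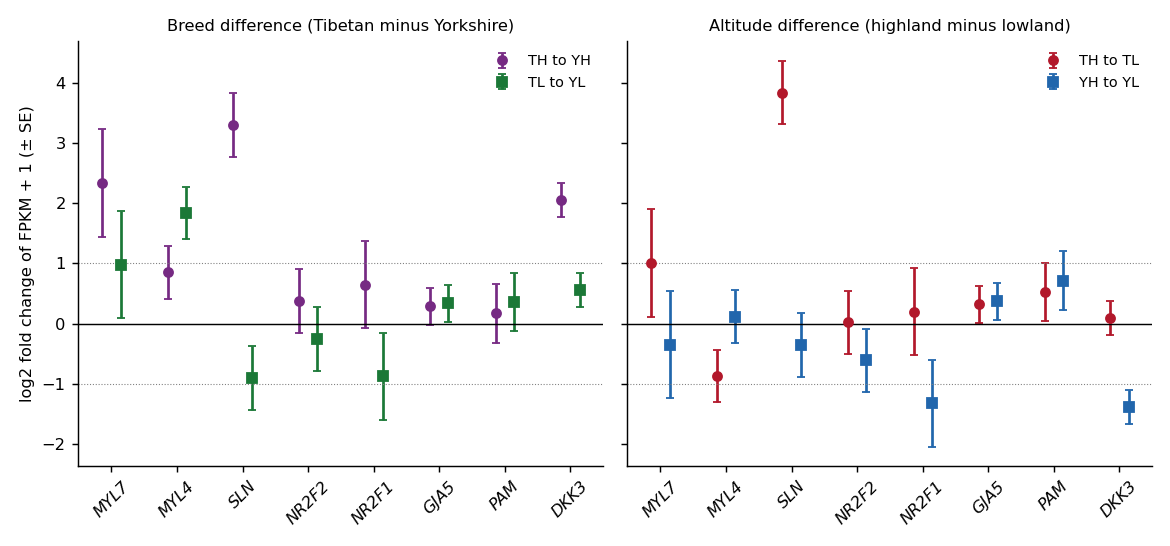
Log2 fold change of FPKM + 1 with its SE (vertical axis) for each atrial marker gene, for the breed differences on the left (TH to YH circles, TL to YL squares) and the altitude differences on the right (TH to TL circles, YH to YL squares), with dotted lines at 1 and -1. SLN lay at 3.29 for TH to YH and at 3.84 for TH to TL and below 0 in the other comparisons, and DKK3 lay at 2.05 for TH to YH and at -1.39 for YH to YL.

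The comparisons TH to TL and YH to YL ask what altitude does within a breed, and each shares its libraries with the breed comparisons. In TH to TL no member passed the threshold (0.0504% of all genes did), and SLN alone had an unadjusted p under 0.05, where 11.3% of all genes did. MYL7, SLN and PAM were higher in TH without overlap, 3 of 8, against 24.0% of all genes. MYL7 had a log2 fold change of 1.01 ± 0.89 (limma, adjusted p = 0.722) and PAM one of 0.52 ± 0.49 (limma, adjusted p = 0.737). MYL4 was lower in TH without overlap, at -0.87 ± 0.44 (limma, adjusted p = 0.507), 1 of 8 against 24.5%. DKK3 and NR2F2 lay near 0 in this comparison, at 0.10 ± 0.28 and 0.02 ± 0.53, and NR2F1 and GJA5 at 0.20 ± 0.72 and 0.32 ± 0.31.

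In YH to YL no member passed the threshold by limma, and 0.0% of all genes did. DKK3 was the single member with an unadjusted p under 0.05, against 5.97% of all genes. GJA5 was higher in YH without overlap, 1 of 8, at 0.37 ± 0.31, against 21.9%. SLN, NR2F1 and DKK3 were lower in YH without overlap, 3 of 8, against 14.4%, with NR2F1 at -1.32 ± 0.72 and SLN at -0.35 ± 0.53. NR2F1 was -0.11 without YL2 and -2.53 without YL1, where it had the lowest adjusted p of any member in any alternative (limma, adjusted p = 0.0142). DKK3 was -1.08 without YL2 and -1.71 without YL1. MYL7, at -0.35 ± 0.89, was 1.12 without YL1 and -1.81 without YL2. MYL4 lay at 0.12 ± 0.44, NR2F2 at -0.61 ± 0.53 and PAM at 0.71 ± 0.49, and without YL2 these were -0.31, 0.28 and -0.053. Without YL1 they were 0.55, -1.50 and 1.48.

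The interaction tests whether the breed difference at high altitude differs from that at low altitude. No member passed the threshold, which 0.0336% of all genes passed. SLN and DKK3 had an unadjusted p under 0.05, 2 of 8, against 10.9% of all genes. For SLN the breed difference was larger at high altitude by 4.19 ± 0.75 on the log2 scale (limma, adjusted p = 0.242), and the direction of the breed difference was opposite at the 2 altitudes. For DKK3 it was larger by 1.49 ± 0.40 (limma, adjusted p = 0.333), with Tibetan libraries above Yorkshire libraries at both. For MYL7 the interaction was 1.36 ± 1.26 and for MYL4 -0.99 ± 0.62 (limma, adjusted p = 0.682 and 0.576). NR2F1 lay at 1.52 ± 1.02, NR2F2 at 0.63 ± 0.74, PAM at -0.19 ± 0.69 and GJA5 at -0.05 ± 0.43. Without YL2 the interaction was 2.82 for MYL7, -0.56 for MYL4, 0.31 for NR2F1, -0.26 for NR2F2 and 0.58 for PAM, while SLN had 4.06 and DKK3 1.17. Without YL1 it was -0.11 for MYL7, -1.41 for MYL4, 2.73 for NR2F1, 1.52 for NR2F2 and -0.95 for PAM, while SLN had 4.33 and DKK3 1.80.

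**Figure D3:**
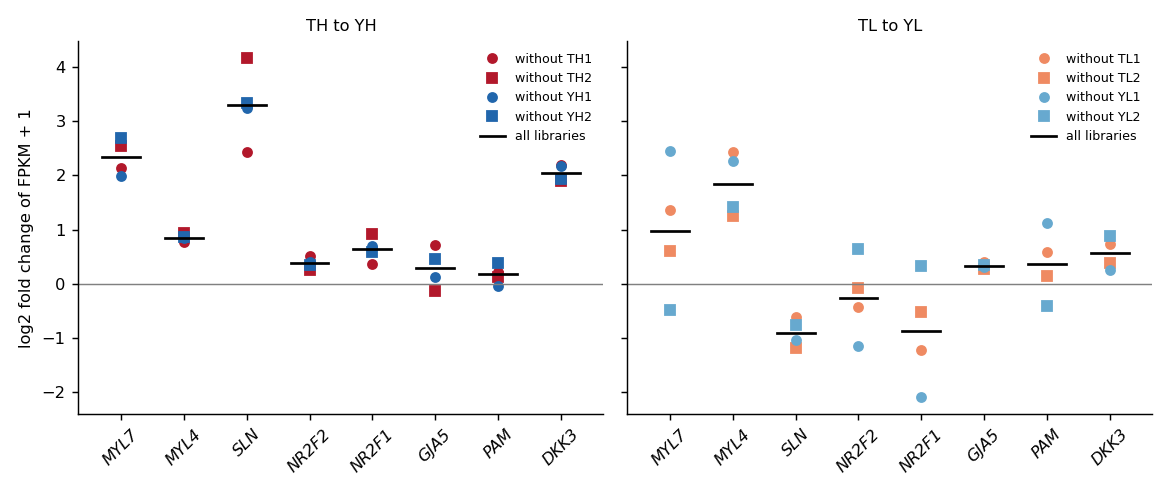
Log2 fold change of each atrial marker gene for TH to YH (left) and TL to YL (right) with all libraries (line) and after leaving out each compared library in turn (coloured points, circle for replicate 1 and square for replicate 2). For TH to YH, MYL7 stayed between 1.99 and 2.68 and SLN between 2.43 and 4.16, while for TL to YL, MYL7 moved from -0.48 without YL2 to 2.45 without YL1.

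Ratios set a member beside a partner gene within a library, where a factor common to both genes cancels. A ratio also moves with the level of either gene in each cell, so it does not measure chamber share alone. MYL2 was not among the matched ventricular genes, so MYL7 was set beside MYL3. MYL3, the ventricular essential light chain, had 7440 and 5341 FPKM in TH, with TL at 7951 and 9276, YH at 6557 and 7282, and YL at 7963 and 3282. MYL7 reached 57.6% and 60.0% of MYL3 in TH, with TL at 17.8% and 25.8%, YH at 8.78% and 12.8%, and YL at 32.4% and 10.3%. The TH ratios were above all others and close to each other. The mean log2 ratio was higher by 2.47 in TH than in YH and by 1.46 in TH than in TL, with no test made. For TL to YL it was 0.23, and it was -0.59 without YL2.

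MYL4 made up a small amount beside MYL3, 0.102% and 0.126% in TH, with TL at 0.111% and 0.231%, YH at 0.0531% and 0.0486%, and YL at 0.0577% and 0.0636%. Again the Tibetan ratios lay above the Yorkshire ratios in every library, also with YL2. SLN reached 5.04% and 1.62% of PLN in TH, with TL at 0.0370% and 0.0878%, YH at 0.121% and 0.163%, and YL at 0.140% and 0.428%. PLN had more FPKM than SLN in every library. GJA5 stood at 1.74% and 4.13% of GJA1, the connexin 43 gene of working muscle, in TH, with TL at 1.998% and 2.35%, YH at 2.48% and 2.36%, and YL at 1.41% and 5.40%. The high GJA5 ratio of YL2 came with a GJA1 level of 62.1 FPKM, the lowest of the 8 libraries.

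**Figure D4:**
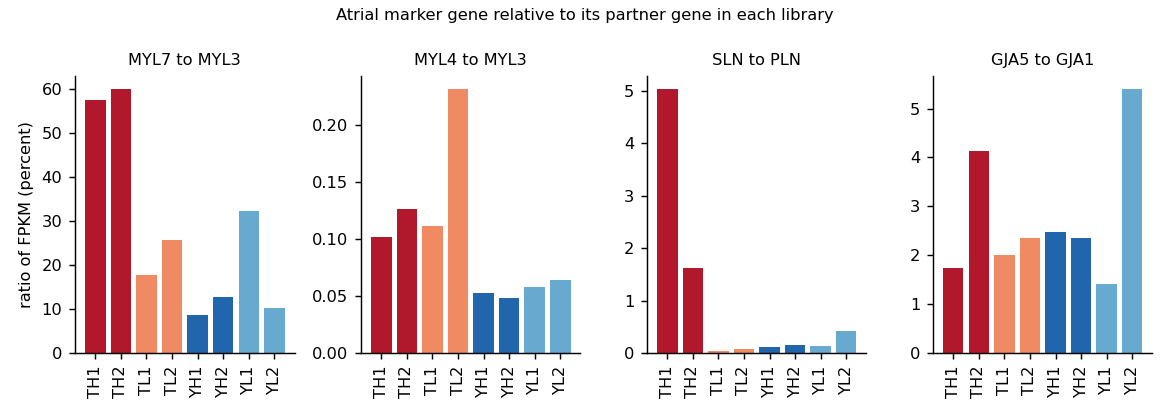
FPKM of an atrial marker gene as a percent of the FPKM of a partner gene in the same library (bars from 0, one for each library, coloured by group). MYL7 reached 57.6% and 60.0% of MYL3 in the TH libraries and at most 32.4% in the others, and the MYL4 ratios of the 4 Tibetan libraries (0.102% to 0.231%) lay above those of the 4 Yorkshire libraries (0.0486% to 0.0636%).

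The other atrial genes did not all follow the members. NPPA, the atrial natriuretic peptide gene, had 2263 and 2146 FPKM in TH and 23.1 to 108 in the other 6 libraries, with a log2 fold change of 5.53 ± 0.68 for TH to YH (limma, adjusted p = 0.0447). MYH6, the fast atrial myosin heavy chain gene, went the other way: it had 20.6 and 18.4 FPKM in TH, with TL at 75.1 and 161, YH at 246 and 135, and YL at 88.4 and 2.60. Both TH libraries lay below TL, YH and YL1 for MYH6, where MYL7 and SLN were highest, and the TH to YH value was -3.16 ± 1.32 (limma, adjusted p = 0.307). TBX5, a transcription factor of atria and left ventricle, had 9.14 and 8.39 FPKM in TH and 12.3 to 17.1 in TL and YH, with YL at 10.6 and 5.31. KCNJ5, a subunit of the acetylcholine-gated potassium channel of atrial muscle, had 19.7 and 16.2 FPKM in TH and 21.1 to 43.7 in TL and YH, with YL at 24.6 and 17.8. KCNJ3, its partner subunit, overlapped between TH, with 14.7 and 9.88 FPKM, and YH, with 15.5 and 10.3.

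Of the 16 other atrial genes listed, 13 were matched and 8 passed the filter on low values. Of those 8, NPPA was higher and 4 were lower in TH than in YH without overlap, against 25.2% higher and 27.3% lower of all genes. Their median log2 fold change was -0.55, against 0.75 for the members. For TH to TL the median was -0.55 as well, against 0.26 for the members. Of 9 ventricular genes listed, 7 were tested. Their median was -0.36 for TH to YH and -0.45 for TH to TL, with 1 higher and 3 lower in TH than in YH without overlap, beside the same shares of all genes. FHL2, a LIM-domain protein of ventricular muscle, had 29.0 and 42.1 FPKM in TH, with TL at 155 and 125, YH at 60.4 and 59.9, and YL at 60.8 and 35.4. IRX4, a transcription factor that marks ventricular muscle, had 21.1 and 12.0 FPKM there, 9.37 and 9.02 in TL, and 11.4 and 12.0 in YH. By limma none of these 15 tested genes passed the threshold in TH to YH. NPPA and MYH6 had an unadjusted p under 0.05, as did 16.2% of all genes.

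**Figure D5:**
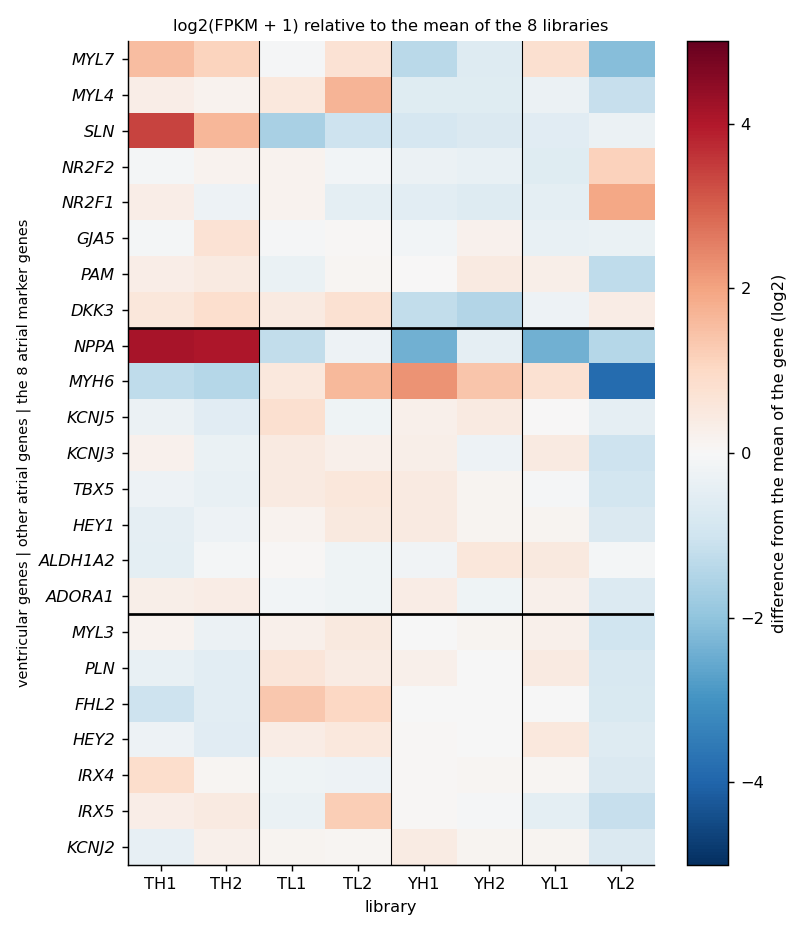
Log2(FPKM + 1) of each gene minus its mean over the 8 libraries (colour, red above and blue below the mean) for the 8 atrial marker genes at the top, the 8 tested other atrial genes in the middle and the 7 tested ventricular genes at the bottom, with the libraries in columns. MYL7, SLN and NPPA were above their mean in both TH libraries, MYH6, KCNJ5, TBX5 and HEY1 were below theirs in the same libraries, and most genes were low in YL2.

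The genes known to work with the members were a list of 25, of which 15 were tested. Among these, 11 had higher means in TH than in YH on the log2 scale, as did 5663 of all 11913 genes tested. Their median log2 fold change was 0.27, against -0.03 over all genes. Of the 15, 5 were higher without overlap, against 25.2% of all genes, and PLN was lower, against 27.3%. None passed the threshold by limma, and 3 had an unadjusted p under 0.05, against 16.2% of all genes. NPPB, the second cardiac natriuretic peptide whose precursor is stored beside PAM in atrial granules, had 4963 and 3264 FPKM in TH and 7.75 to 278 in the other 6 libraries. ENG, which encodes endoglin, a coreceptor of BMP10, had 39.1 to 71.6 FPKM. LRP5, a Wnt coreceptor that other Dickkopf proteins bind, had 17.3 to 30.3 FPKM. NR2F6, a distant relative of the COUP-TF genes, was more abundant than both, at 39.3 to 84.1 FPKM.

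The members did not share one pattern across the libraries. As a description over 8 libraries that share groups, with YL2 far from the rest, MYL7 had a Pearson correlation of log2(FPKM + 1) of 0.67 with MYL4, 0.72 with PAM and 0.55 with SLN. Without YL2 these were 0.49, 0.37 and 0.67. NR2F1 and NR2F2 had 0.92 with YL2 and 0.65 without it. MYL7 and DKK3 had 0.49 with YL2 and 0.81 without it. MYL7 and MYH6, both atrial myosin genes, had 0.13 with YL2 and -0.79 without it.

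The genes whose pattern was most like that of a member were taken from genes with a mean of at least 10 FPKM, by the same correlation over 8 libraries. For MYL7 they were P4HA2 (0.97), CDK16 (0.96) and TMEM109 (0.95), and for MYL4 they included ABL1 (0.96) and CAPN1 (0.95). For SLN they were TMUB1 (0.99), CD63 (0.98) and SSR4 (0.98), each highest in TH1 and second in TH2. For NR2F2 they were FAM213A (0.98), MXRA8 (0.96) and TM9SF1 (0.96), and for NR2F1 SLC3A2 (0.98), GUK1 (0.98) and SLC35B2 (0.97), all 6 highest in YL2. For GJA5 they were CCND3 (0.95), NID2 (0.94) and IGFBP6 (0.94), all highest in TH2. For PAM they were RHOJ (0.98), KLC1 (0.97) and GYS1 (0.97), all lowest in YL2. For DKK3 they were U12 (0.95), IGFBP7 (0.93) and TGFB2 (0.91). Without YL2 the gene closest to MYL7 was MYL9 (0.97), a regulatory light chain of smooth muscle, and the one closest to NR2F1 was ID1 (0.99).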

How the data were processed

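The authors aligned paired reads to the pig genome Sscrofa10.2 with TopHat2 2.0.9 and Bowtie 0.12.5 (versions per the submitters' processing notes) and deposited FPKM values, which they computed with Cufflinks, for 8 heart libraries. A second set of columns deposited by the authors, named as counts, holds a scaled read signal that is not whole; 99.7% or more of its low values (up to 20 reads) lay within 0.1 of a multiple of one step per library. It was used to approximate the reads behind a value, and no count test was run on it. Columns of the authors' group means and fold ratios (8 in the whole table) were not used, and tables for single groups repeated values of the whole table. Genes were named by the table (14256 of 18975) or by a gene name table (1025).

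log2(FPKM + 1) was fitted with limma 3.58.1 (R 4.3.3), with a mean for each of the 4 groups, all 8 libraries, a variance trend and Benjamini-Hochberg adjustment over the 11913 genes that 2 or more libraries held at 1 FPKM or above. Fold changes are on that scale and understate those of low genes. Genes were called at an adjusted p under 0.01 and an absolute log2 fold change over 1. Groups do not overlap where both libraries of one lie above both of the other. The fit was tested on simulated data. FPKM carry no counting interval, and 2 pools a group limit every test.

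The members and the lists beside them were chosen with earlier results of these data known. Named genes were the members, at most 8 genes of each list by mean FPKM, and the 3 genes closest to each member, of which a gene close to MYL4 is not reported here. Alternatives covered pseudocounts, filters, scalings, moderation, thresholds, a replicate block and each library left out.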

Additional observations from a re-analysis of the deposited data

Results flagged for a closer look

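SLN is listed for a closer look because its breed difference differed between altitudes. The interaction on the log2 scale was 4.19 ± 0.75 with an adjusted p of 0.242 by limma. SLN was higher in both TH libraries than in both YH libraries, and lower in both TL libraries than in both YL libraries. The highest library, TH1, had 56.5 FPKM, and the other TH library had 16.3. The interaction was 3.32 without TH1 and 4.06 without YL2.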

How the results depend on the processing

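No member passed the threshold under any alternative that kept the adjusted p under 0.01, and the lowest adjusted p over all of them was 0.0142, for NR2F1 in YH to YL without YL1. At an adjusted p under 0.05 in the fit as reported, no member passed either. Apart from fits without 1 library, 1 member value had an adjusted p under 0.05 by limma and an absolute log2 fold change over 1. It was DKK3 for TH to YH, with the filter of a mean of at least 10 FPKM (limma, adjusted p = 0.0443). The share of all genes at this limit was not computed. Fits without a library are not counted here, since a group is then 1 library. Without YL1, YL was YL2 alone, the library with the kidney-type transcripts. With the limit on p set at 0.01 before adjustment, 2 members passed in TH to YH, 1 in TL to YL, 1 in TH to TL, 1 in YH to YL and 2 in the interaction, where 4.06%, 2.03%, 2.57%, 0.839% and 2.85% of all genes tested did. Of 652 fold changes recomputed under an alternative, 616 kept their direction and 36 did not. Scaling to cardiomyocyte genes and using scaled read values were chosen after seeing the data. Scaled to cardiomyocyte genes, PAM was -0.13 for TH to YH and -0.18 for TL to YL, GJA5 -0.12 for TL to YL, NR2F2 -0.0066 for TH to TL, MYL4 -0.080 for YH to YL, and the interactions of GJA5 and PAM were 0.17 and 0.047. With scaled read values these interactions were 0.0026 and 0.038. With median-ratio scaling, NR2F2 was -0.067 and DKK3 -0.0071 for TH to TL. Scaling to cardiomyocyte genes moved the median of all genes to -0.26 for TH to YH, -0.45 for TL to YL and -0.21 for YH to YL, and to 0.22 for the interaction. Median-ratio scaling moved it to -0.13 for TH to YH and -0.10 for TH to TL. The cause of the reversals was not tested.

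Leaving out 1 library at a time, the value for TH to YH ranged from -0.13 to 0.71 for GJA5 and -0.038 to 0.38 for PAM. For TL to YL it ranged from -0.48 to 2.45 for MYL7, -1.14 to 0.63 for NR2F2, -2.09 to 0.34 for NR2F1 and -0.40 to 1.12 for PAM. For TH to TL it ranged from -0.15 to 0.20 for NR2F2, -0.15 to 0.55 for NR2F1, -0.10 to 0.74 for GJA5 and -0.076 to 0.27 for DKK3. For YH to YL it ranged from -0.31 to 0.55 for MYL4, -1.81 to 1.12 for MYL7, -1.50 to 0.28 for NR2F2 and -0.053 to 1.48 for PAM. For the interaction it ranged from -0.11 to 2.82 for MYL7, -0.26 to 1.52 for NR2F2, -0.47 to 0.38 for GJA5 and -0.95 to 0.58 for PAM. The log2 ratio of MYL7 to MYL3 ranged from -0.59 to 1.06 for TL to YL and from -1.61 to 0.047 for YH to YL. The lone library of a group was then assumed to vary like the others.

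The replicate numbers did not pair the samples, since correlations of the deviations from the group means were -0.0844 to 0.118 over the 6 pairs of groups. With a replicate block, 0 members passed in each comparison. Of all genes tested, 305 passed in TL to YL without YL1, against 1 with all libraries. The same library left out gave 305 in YH to YL, against 0, and 152 in the interaction, against 4. No gene passed with scaled read values. edgeR and DESeq2 were not run, because the values named as counts were not whole reads. SLN had 10 reads in TL1, so its level there was the least precise of its values.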
